A study of Mus musculus with 6 samples.

Results

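Aggrecan and 7 other proteins of the cartilage matrix were followed through total RNA of mouse mesenchymal stem cells. The genes are Acan, Hapln1, Lect1, C1qtnf3, Comp, Matn1, Matn3 and Chad, taken by symbol from the exonic and intronic tables. All 8 were found among the 23227 genes of the exonic tables and the 23231 genes of the intronic tables. Lect1 is the older symbol of chondromodulin. At least 1 exonic read was recovered for 7 of the 8 genes and at least 1 intronic read for all 8.

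The cells were immortalized clonal lines, called both mesenchymal stem cells and fibroblasts in the labels, grown with fetal bovine serum and taken before they were confluent. The 6 groups were untreated Dicer WT cells (Dicer f/f), untreated Dicer KO cells (Dicer -/-), and Dicer WT cells that received either a vector with no insert or one for Pbx3, Sox9 or Tead4. Each deposited group mean held 2 libraries, whose reads were recovered, so there were 12 libraries. The labels list 1 sample per group and do not say whether the libraries were separate cultures, so the p-values measure the spread between these libraries, which may be technical. Each genotype is 1 clonal line, and an effect of the clone cannot be told apart from that of the genotype. The sources used here do not give the age of the animals or the promoter of the vectors. Exonic gene reads numbered 6130267 to 23501655 per library and intronic gene reads 3156973 to 10205497.

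Cartilage resists compression because aggrecan, a very large proteoglycan carrying chondroitin and keratan sulphate chains, is held on hyaluronan threads inside a collagen network. Link protein, encoded by Hapln1, locks aggrecan to hyaluronan. The matrilins (Matn1, Matn3) and cartilage oligomeric matrix protein (Comp) are multi-subunit adaptors that bridge collagen fibrils and proteoglycans, and chondroadherin (Chad) is a leucine-rich protein that binds cells and collagen. Chondromodulin is a membrane-anchored glycoprotein that keeps cartilage free of vessels, and C1qtnf3 encodes a secreted protein of the C1q and tumour necrosis factor family found in growing cartilage. SOX9 is the transcription factor that chondrocytes depend on, and it acts on many genes of this matrix through distant enhancers as well as promoters.

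The 4 genes whose reads differ most between the transfected groups are Acan, Hapln1, Lect1 and C1qtnf3, and the 250 bases before their transcription starts are shown to set the promoters of genes that moved together side by side. The sequences are RefSeq windows on GRCm38.p6, read 5′ to 3′ on the strand of the gene. A window was given for 7 of the 8 genes; none was found for Comp. The windows lie at chr7:79052976-79053225 on the plus strand for Acan and at chr13:89540386-89540635 on the plus strand for Hapln1. They lie at chr14:79662184-79662433 on the minus strand for Lect1 and at chr15:10952082-10952331 on the plus strand for C1qtnf3. Capitals mark matches, on either strand, to GGAATG, the letters of the TEAD site, and TATAAA, the letters of the TATA box. Whether a marked stretch works as such a site or box was not tested.
Acan: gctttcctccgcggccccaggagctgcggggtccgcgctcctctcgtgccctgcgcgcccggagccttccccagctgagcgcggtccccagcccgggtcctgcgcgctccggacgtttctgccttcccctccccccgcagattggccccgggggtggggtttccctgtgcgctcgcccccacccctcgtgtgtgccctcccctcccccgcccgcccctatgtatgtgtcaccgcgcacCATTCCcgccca
Hapln1: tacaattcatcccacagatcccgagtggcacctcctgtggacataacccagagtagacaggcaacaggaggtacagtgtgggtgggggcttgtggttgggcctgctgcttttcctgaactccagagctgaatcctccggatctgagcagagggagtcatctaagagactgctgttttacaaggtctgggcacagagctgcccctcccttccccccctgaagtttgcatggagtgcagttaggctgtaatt
Lect1: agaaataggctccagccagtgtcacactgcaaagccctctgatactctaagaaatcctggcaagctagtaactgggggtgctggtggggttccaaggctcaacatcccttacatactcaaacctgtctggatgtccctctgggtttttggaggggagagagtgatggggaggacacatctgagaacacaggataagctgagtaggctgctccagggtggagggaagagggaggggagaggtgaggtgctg
C1qtnf3: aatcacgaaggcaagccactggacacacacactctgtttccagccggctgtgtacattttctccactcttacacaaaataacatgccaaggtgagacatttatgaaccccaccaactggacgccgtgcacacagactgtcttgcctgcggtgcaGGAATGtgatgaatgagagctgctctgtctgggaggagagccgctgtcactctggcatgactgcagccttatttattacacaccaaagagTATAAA

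These 4 windows differ in base composition. G and C make up 74.4% of the Acan window, 54.4% of the Hapln1 window, 54.0% of the Lect1 window and 49.2% of the C1qtnf3 window, beside a median of 52.4% over 32851 mouse windows of this length. GGAATG lies 12 to 7 bases before the start in Acan, on the opposite strand, and 96 to 91 bases before it in C1qtnf3. It occurs at 2 places in the window of Matn3, and 12.6% of all windows hold it. TATAAA lies 6 to 1 bases before the given start of C1qtnf3 and 28 to 23 bases before that of Chad, and 12.4% of all windows hold it. The SOX letters ACAAAG and ACAATG were not in any of the 7 windows, and 25.2% of all windows hold at least 1 of them. The PBX letters TGATTGA were in none of the 7 and in 2.34% of all windows. These are matches of letters in a short window and say nothing of binding.

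The labels were read against marker genes first. Of 11 stromal markers, all but Thy1 had reads, and their summed level was 4155 to 9451 exonic reads per 1000000 gene reads of a library (RPM) over the 12 libraries. Thy1 was at 0 in all of them. Summed osteoblast markers were at 148 to 1479 RPM, adipocyte markers at 95.1 to 324, tendon markers at 17.4 to 47.6 and neuron markers at 1.28 to 6.44. Those of blood, endothelium and epithelium reached at most 2.80, 0.531 and 0.596 RPM. The sums rest on part of each list. Median levels over the libraries ran from 0.513 RPM for Bglap to 286 for Alpl among osteoblast markers. They ran from 0 for Plin1 to 97.1 for Pparg among adipocyte markers and from 0.139 for Tnmd to 16.5 for Scx among tendon markers. The neuron range is that of Tubb3, with Rbfox3 at 0. The 10 chondrocyte markers, which include 6 of the 8 genes described here, summed to 1396 and 1879 in the Sox9 libraries and to between 5.06 and 76.7 in the other 10. Most of the Sox9 sums was Col2a1, at 1097 and 1399 RPM. The list did not rise as a whole: Matn3 and Comp overlapped between Sox9 and vector cells, and Matn1 had no exonic read in either. Stromal markers were also highest in the Sox9 libraries, at 7437 and 9451 RPM against at most 6383 in the others, and their part in the differences between groups was not tested. In these bulk samples, fewer cells making an RNA and less of it per cell cannot be told apart.

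Sox9, the factor carried by 1 of the vectors, had 143 and 168 exonic reads in the Sox9 libraries and 48 and 159 in the vector libraries. After scaling, these were normalised counts of 186 and 179 against 47.5 and 115.6, so the groups did not overlap. The log2 difference of 1.29 ± 0.39 missed the threshold of 0.05 (limma adjusted p = 0.272). Intronic Sox9 reads were 17 and 25 against 2 and 5, which is 7.22 times the vector level with a 95% counting interval of 3.21 to 19.0. In the authors' deposited table the intronic difference has an adjusted p of 0.0177. Which parts of Sox9 the construct holds is not stated. The other factors were checked in the same way. Pbx3 had 187 and 296 exonic reads in vector cells and 38988 and 26439 in Pbx3 cells, and Tead4 had 35 and 45 in vector cells and 7648 and 4593 in Tead4 cells. Dicer1 had 1492 and 1206 exonic reads in Dicer WT and 1020 and 1033 in Dicer KO cells; its row covers the whole gene, and which exons were deleted is not stated, so these reads do not check the knockout.

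In Sox9 cells 4 of the 8 genes rose and the other 4 were not tested. Hapln1, C1qtnf3, Acan and Lect1, close to 0 in vector cells, made up 4 of the 5 largest exonic rises among the genes tested, of which 0.547% passed. Genes this low in vector cells could be tested only if they rose steeply, so these ranks are a description. Matn3 and Comp had as few reads as in vector cells, with overlapping groups, and Matn1 and Chad had no exonic read in either group. Values are normalised counts (reads divided by the authors' size factors), and each ± is a standard error of a limma log2 fold change from 2 libraries per group. A gene was tested when its mean over both groups reached 50 normalised counts, and it passed at a limma adjusted p under 0.05.

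Hapln1, the link protein, had 2 and 2 exonic reads in vector cells and 1228 and 2445 in Sox9 cells. The normalised counts were 1.98 and 1.45 against 1599 and 2611, a ratio of 1286 with a 95% counting interval of 502 to 4722. Both Sox9 libraries stood far above every other library of the series. The log2 fold change was 9.56 ± 0.32 (limma adjusted p = 5.74e-05), rank 1 among the rises of 9698 genes. Acan, the core protein that link protein holds in place, had 0 and 1 reads in vector cells and 266 and 592 in Sox9 cells. Its normalised counts of 0 and 0.727 became 346 and 632, a ratio of 1201 with an interval of 215 to 47509. The rise was 8.48 ± 0.52 (limma adjusted p = 0.00109), rank 3.

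C1qtnf3 had 0 and 2 exonic reads in vector cells and 326 and 886 in Sox9 cells. The normalised counts were 0 and 1.45 against 424 and 946, a ratio of 849 with an interval of 234 to 7015, and the rise was 8.66 ± 0.59 (limma adjusted p = 0.00129), rank 2. Lect1, chondromodulin, had 0 and 1 reads in vector cells and 90 and 288 in Sox9 cells. The normalised counts were 0 and 0.727 against 117 and 308, a ratio of 529 with an interval of 94.4 to 20961. Of the 4 genes it has the fewest reads, and its rise was 7.18 ± 0.67 (limma adjusted p = 0.00518), rank 5. Without the second Sox9 library it was 6.49 and did not pass (limma adjusted p = 0.0816). The intervals cover counting error only, and the fitted folds depend on the pseudocount because the vector reads are near 0.

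These 4 are the members that reached the minimum mean of 50 normalised counts. They reached it through the Sox9 libraries alone, so their share and their high ranks say nothing by themselves. Among the 9698 genes tested, 0.547% passed, 44 up and 9 down. The authors' deposited table gives adjusted p-values of 9.99e-17 for Hapln1, 2.01e-09 for Acan, 1.45e-05 for C1qtnf3 and 0.00354 for Lect1. Rank 4 of the rises was Chl1, a neural cell adhesion molecule, named because it stands among them.

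**Figure D1:**
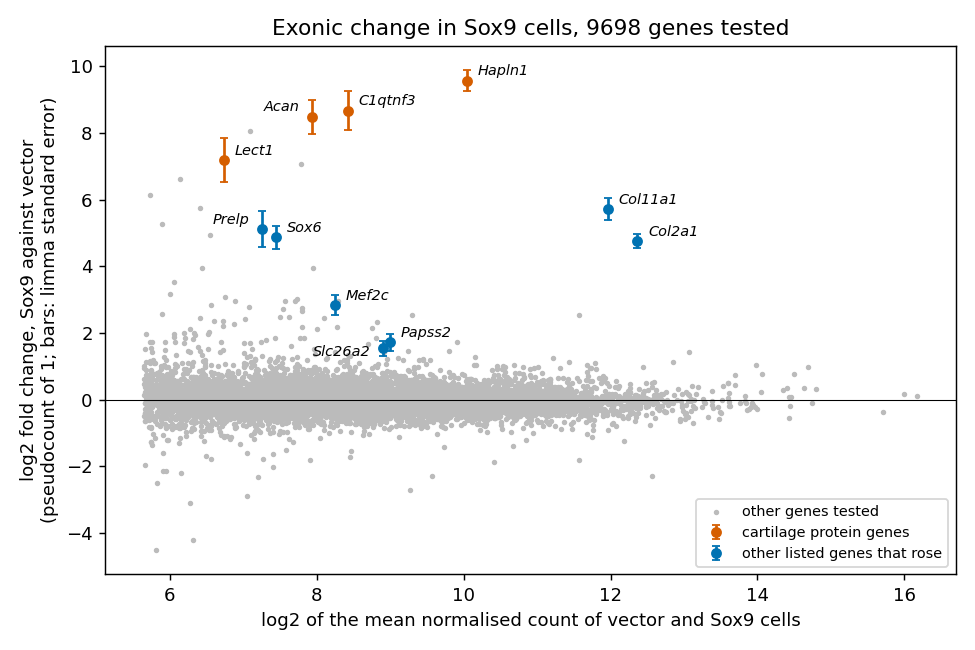
Log2 fold change of Sox9 against vector cells (y axis, exonic reads, pseudocount of 1) against the log2 mean normalised count (x axis) for the 9698 genes tested; bars are limma standard errors from 2 libraries per group. Hapln1 at 9.56, C1qtnf3 at 8.66, Acan at 8.48 and Lect1 at 7.18 lie at the top, above Col11a1 at 5.72 and Col2a1 at 4.76, and most genes lie near 0.

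Matn3 and Comp did not share this rise. Matn3 had 18 and 60 exonic reads in vector cells and 16 and 39 in Sox9 cells, or normalised counts of 17.8 and 43.6 against 20.8 and 41.7. The groups overlapped almost fully, and the ratio was 0.987 with a counting interval of 0.686 to 1.41. Comp had 4 and 28 reads in vector cells and 7 and 6 in Sox9 cells, or 3.96 and 20.4 against 9.11 and 6.41 normalised counts. The Sox9 values lay between the vector values, and the ratio was 0.569 with an interval of 0.274 to 1.11. Both genes were under the minimum of 50 and were not tested there. With a minimum of 10, Matn3 was tested and its log2 fold change was 0.08 ± 0.53 (limma adjusted p = 0.969). A difference of the size seen for the other 4 genes lies outside both counting intervals.

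Matn1 and Chad had 0 exonic reads in the Sox9 libraries, which allows up to 0.216 RPM for each. Over all 12 libraries Matn1 had 1 exonic read, in Dicer WT cells. Chad had 0 in every library, with limits of 0.0679 to 0.216 RPM by group. Their intronic reads were as few: Matn1 had 1 in Dicer WT and 1 in vector cells, and Chad had 1 and 2 in the Dicer WT libraries and none elsewhere. No difference in Matn1 or Chad between groups was detectable at this depth.

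**Figure D2:**
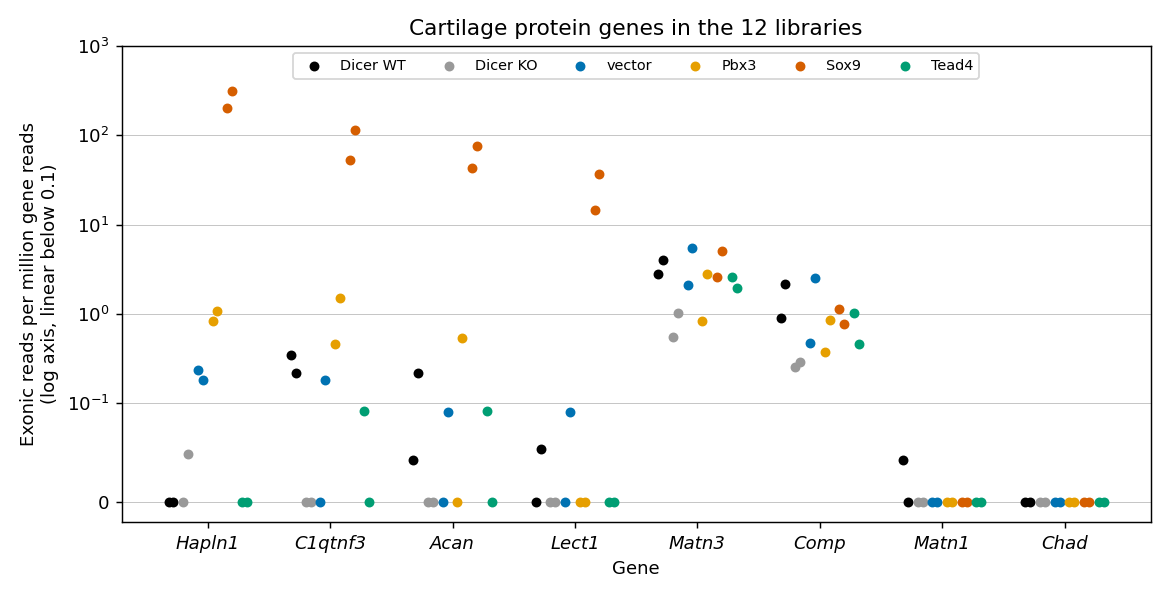
Exonic RPM (y axis, log scale, linear below 0.1) of the 8 genes (x axis) in each of the 12 libraries, 1 point per library and 1 colour per group. In Hapln1, C1qtnf3, Acan and Lect1 the 2 Sox9 libraries lie between 14.7 and 315 RPM and all others at or below 1.49, whereas in Matn3 and Comp the groups intermix, and the Dicer KO libraries are among the lowest.

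The order of the 6 detected genes in Sox9 cells was read per length, using the summed exon length of each gene in GENCODE M21. Hapln1 had a level of 43.6 RPM per kilobase (33.9 and 53.3 in the 2 libraries) and C1qtnf3 of 32.7 (20.8 and 44.6), and their ranges overlap. Lect1 followed at 14.0 (7.97 and 20.1), just below the range of C1qtnf3, and Acan at 8.01 (5.81 and 10.2), overlapping Lect1. Matn3 at 1.27 (0.866 and 1.67) and Comp at 0.323 (0.260 and 0.385) came last and overlapped neither each other nor the genes above. On the same scale Col2a1, the main collagen of cartilage, had a level of 135 (119 and 151). The ranges of Hapln1 and of Acan, the proteoglycan it anchors, did not overlap, and all 6 genes lay below Col2a1. The authors' gene models are not stated, so these lengths may differ from theirs.

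Levels in RPM (mean ± SD, n = 2) show how narrow this pattern was across the groups. Hapln1 was at 258 ± 80.9 in Sox9 cells, 0.949 ± 0.167 in Pbx3 cells and 0.207 ± 0.036 in vector cells, with 0 reads in Dicer WT and Tead4 cells and 1 read in Dicer KO cells. C1qtnf3 was at 83.6 ± 43.1 in Sox9 cells, 0.978 ± 0.730 in Pbx3 cells, 0.280 ± 0.091 in Dicer WT cells and 0.0908 ± 0.128 in vector cells. Acan was at 59.8 ± 23.2 in Sox9 cells and at most 0.267 ± 0.377 elsewhere, in Pbx3 cells. Lect1 was at 25.9 ± 15.8 in Sox9 cells and had at most 1 read in any other library. Among all genes ordered by RPM in Sox9 cells, Hapln1 stood at place 756, C1qtnf3 at 3114, Acan at 4164 and Lect1 at 6876. Outside the Sox9 group the levels of these 4 genes rest on 0 to 14 reads per library, and no order is read from them there.

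The intronic reads, which come mostly from RNA that is not yet spliced, were also higher in Sox9 cells for these 4 genes. Hapln1 had 2 and 5 intronic reads in vector cells and 369 and 512 in Sox9 cells, a ratio of 151 with an interval of 73.2 to 378. Its log2 fold change of 6.92 ± 0.35 passed (limma adjusted p = 6.60e-05), rank 2 of 8361 genes, of which 1.99% passed. Hapln1 reached the minimum here through the Sox9 libraries alone, so its rank is a description. The other members were under the minimum in the intronic tables.

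Acan had 1 and 1 intronic reads in vector cells and 57 and 100 in Sox9 cells, a ratio of 94.4 with an interval of 25.7 to 787. Lect1 had 1 and 1 against 28 and 96, a ratio of 74.6 with an interval of 20.2 to 623. C1qtnf3 had 0 and 0 against 54 and 132. Taking 3 reads over the vector group as the floor, it was 74.6-fold higher, which leaves out the counting error of the Sox9 reads. In all 4 genes the Sox9 libraries lay above the vector libraries in both kinds of reads. With a minimum mean of 10, the intronic rises were 5.44 ± 0.44 for Acan (limma adjusted p = 0.000488), 6.54 ± 0.53 for C1qtnf3 (limma adjusted p = 0.000488) and 4.91 ± 0.58 for Lect1 (limma adjusted p = 0.00313). These genes reached that minimum through the Sox9 libraries alone, so that they passed says little by itself. At that minimum 228 of 11090 genes passed. The authors' deposited table gives intronic adjusted p-values of 4.44e-63 for Hapln1, 4.17e-10 for Acan, 0.000107 for C1qtnf3 and 0.126 for Lect1, and of these 4 Lect1 misses 0.05.

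**Figure D3:**
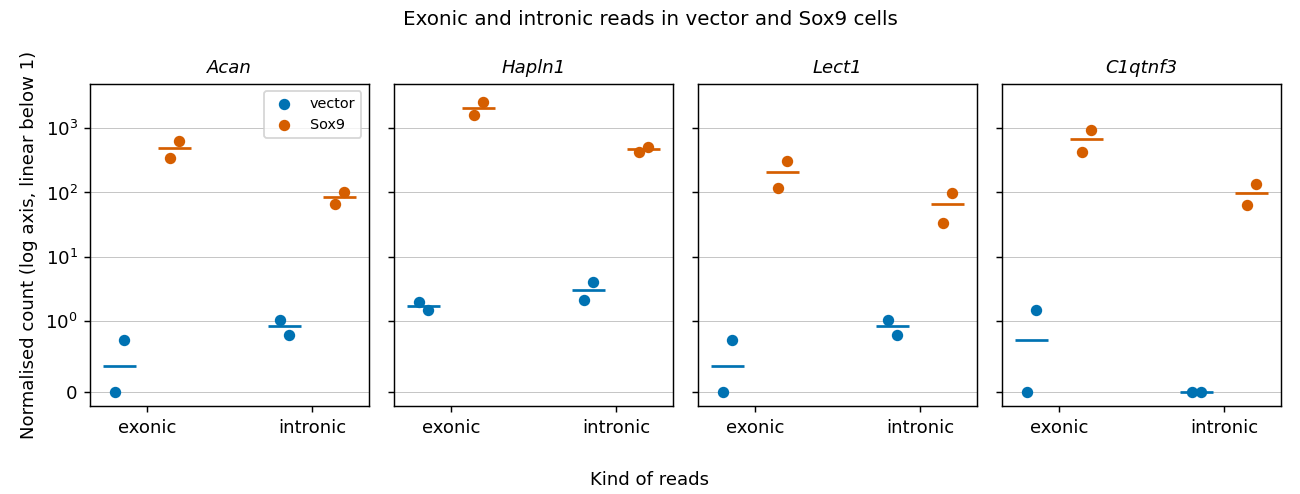
Normalised counts (y axis, log scale, linear below 1) of Acan, Hapln1, Lect1 and C1qtnf3 in exonic and intronic reads, with 1 point per library and a line at the mean of each group. The Sox9 points lie between 33.0 and 2611 and the vector points between 0 and 4.01 in both kinds of reads.

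The 2 Sox9 libraries differed from each other in all 4 genes. The second library was 1.57 times the first in RPM for Hapln1, 1.76 times for Acan, 2.14 times for C1qtnf3 and 2.53 times for Lect1. These differences on the log2 scale were higher than those of 96.2%, 97.7%, 99.0% and 99.5% of the 9698 genes. Sox9 itself was at 0.927 times the first library in the second. The libraries of each group were numbered by the direction in which they differ over all genes, which is a hint from the data and not a label.

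Matn3 and Comp also differed between the libraries of a group. The second vector library was 2.60 times the first for Matn3 and 5.45 times for Comp, and the second Pbx3 library 3.34 times the first for Matn3. Matn3 was higher in the second library in 5 of 6 groups, as was Sox9, and Comp in 4 of 6. The libraries were numbered to agree across groups in these same reads, so part of such agreement is built in. The share of all genes with such counts was not taken. The part of this library difference in the comparisons was not tested beyond the fit with a term for it.

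In the Dicer KO line Comp and Matn3, the adaptor proteins, had fewer reads than in the Dicer WT line, and the other members had few reads in both. Comp had 21 and 40 exonic reads in Dicer WT cells and 6 and 6 in Dicer KO cells, or 19.8 and 44.6 against 5.50 and 6.20 normalised counts. The groups did not overlap, and the ratio was 0.187 with a counting interval of 0.0917 to 0.351. Matn3 had 65 and 74 reads in Dicer WT cells and 13 and 21 in Dicer KO cells, or 61.3 and 82.4 against 11.9 and 21.7 normalised counts. These groups did not overlap either, and the ratio was 0.233 with an interval of 0.155 to 0.341. The share of all genes that do not overlap between these lines was not counted. All 8 genes were under the minimum of 50 in this comparison, so none was tested, while 16.6% of 10706 genes passed.

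With a minimum of 10 the log2 fold change of Matn3 was −2.07 ± 0.43 and passed (limma adjusted p = 0.0317), and that of Comp was −2.17 ± 0.56 and did not (limma adjusted p = 0.0526). At this minimum 2096 of 11901 genes passed in exonic reads. The authors' deposited table gives adjusted p-values of 0.00298 for Matn3 and 0.142 for Comp. Intronic Matn3 reads were 21 and 27 in Dicer WT cells and 8 and 9 in Dicer KO cells, a ratio of 0.351 with an interval of 0.189 to 0.621. With the lower minimum the intronic difference was −1.40 ± 0.37 and did not pass (limma adjusted p = 0.0938), beside 6.51% of 10215 genes that passed in the intronic table at the minimum of 50. Comp introns overlapped between the groups, with 5 and 16 reads in Dicer WT and 5 and 3 in Dicer KO cells.

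Of the other members, C1qtnf3 had 8 and 4 exonic reads in Dicer WT cells and none in Dicer KO cells, 4.21-fold lower with a floor of 3 reads over the group. Its introns had 3 and 1 against 2 and 3. Acan had 1 and 4 exonic reads in Dicer WT cells and none in Dicer KO cells, 1.75-fold lower with that floor. These folds leave out the counting error of the Dicer WT reads, so they are not lower bounds. The authors' deposited table gives adjusted p-values of 0.785 for Acan and 0.299 for C1qtnf3. Hapln1 was at 0 and 0 against 0 and 1 exonic reads. Its introns went the other way from Matn3, with 3 and 6 reads in Dicer WT and 10 and 11 in Dicer KO cells, a ratio of 2.31 with an interval of 1.02 to 5.73 and an adjusted p of 0.921 in the authors' deposited table. Lect1 introns had 5 and 9 reads in Dicer WT and 2 and 4 in Dicer KO cells, a ratio of 0.425 with an interval of 0.134 to 1.18. Sox9 reads overlapped between the lines, at 67 and 347 in Dicer WT and 36 and 231 in Dicer KO cells. Taken by library number, the exonic normalised counts were lower in Dicer KO both times, at 33.0 against 63.2 and 239 against 387. These numbers come from the data and not from labels, so the libraries are not matched pairs. The authors' deposited table gives an exonic adjusted p of 0.997 for Sox9. Intronic Sox9 reads went the other way and overlapped too, at 5 and 19 in Dicer WT and 7 and 28 in Dicer KO cells. Their ratio was 1.45 with an interval of 0.836 to 2.54, so no direction is read for Sox9. Summed chondrocyte markers were 53.4 and 56.8 RPM in Dicer WT and 5.06 and 16.4 in Dicer KO cells, and stromal markers 6201 and 6253 against 4155 and 4638. The chondrocyte sum includes Matn3 and Comp themselves. Its largest part in Dicer WT was Col2a1, at 46.0 and 30.8 RPM against 1.49 and 2.95 in Dicer KO. Col11a2 went the other way, at 0.732 and 0.810 against 1.23 and 0.966. Adipocyte markers were 294 and 324 RPM in Dicer WT and 146 and 148 in Dicer KO cells, and the osteoblast markers overlapped. Their part in the Matn3 and Comp differences was not tested.

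**Figure D4:**
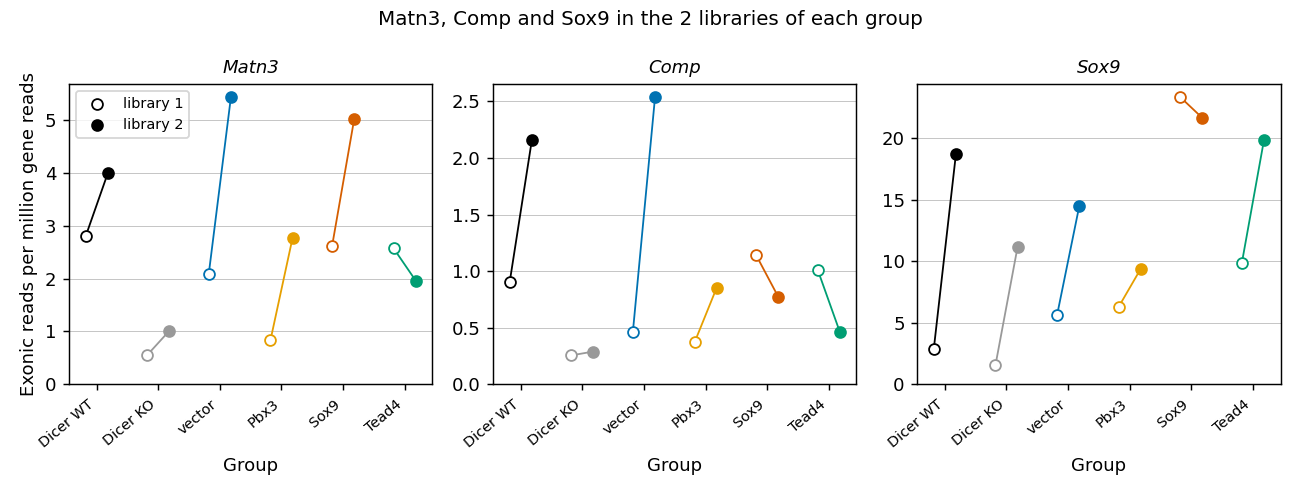
Exonic RPM (y axis, from 0) of Matn3, Comp and Sox9 in library 1 (open) and library 2 (filled) of the 6 groups (x axis). The Dicer KO libraries are at 0.553 and 1.01 for Matn3, and at 0.255 and 0.290 for Comp, below both Dicer WT libraries, and in the vector group the 2 libraries of each gene lie far apart.

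Pbx3 cells, which carry a vector for a homeodomain factor, held small numbers of reads from the Sox9-raised genes. C1qtnf3 had 5 and 14 exonic reads in Pbx3 cells against 0 and 2 in vector cells, a ratio of 9.30 with an interval of 2.24 to 82.3. Hapln1 had 9 and 10 against 2 and 2, a ratio of 4.65 with an interval of 1.54 to 18.8. In these 2 genes the groups did not overlap, but the share of all genes that do not overlap was not counted. Both intervals lay above 1 but cover counting error only, not the spread between libraries. Acan had 0 and 5 against 0 and 1 and overlapped, and Lect1 had no exonic read in Pbx3 cells. The authors' deposited table gives an adjusted p of 1.0 for each, and none of the 8 genes reached the minimum for limma. Among the 9826 genes tested, 0.0102% passed, which is 1 gene, and 233 had an unadjusted p under 0.05.

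Matn3 and Comp had fewer reads in Pbx3 than in vector cells, at 9 and 26 against 18 and 60 for Matn3 and at 4 and 8 against 4 and 28 for Comp. Both overlapped between the groups. The ratios were 0.439 with an interval of 0.286 to 0.662 and 0.367 with an interval of 0.172 to 0.732, and with a minimum of 10 the log2 fold changes were −1.09 ± 0.71 and −0.86 ± 0.93 and did not pass. Intronic reads of Hapln1 were 11 and 4 against 2 and 5 and overlapped, and those of C1qtnf3 were 1 and 4 against 0 and 0. Those of Lect1 were 3 and 4 against 1 and 1, a ratio of 3.44 with an interval of 0.656 to 34.0. Among 8557 genes tested in intronic reads, 0% passed limma, and 248 had an unadjusted p under 0.05. The Pbx3, Sox9 and Tead4 comparisons share the 2 vector libraries, so their values for a gene are not independent of each other.

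Tead4 cells, which carry a vector for a factor of the Hippo pathway, held almost no reads from the 4 genes raised in Sox9 cells. Hapln1 had 0 and 0 exonic reads against 2 and 2 in vector cells. With a floor of 3 reads in Tead4 cells it was 1.34-fold lower. This leaves out the counting error of the vector reads, so no decrease is read from it. Acan had 1 and 0 reads, C1qtnf3 1 and 0, and Lect1 none. Matn3 had 28 and 17 reads against 18 and 60, a ratio of 0.575 with an interval of 0.390 to 0.841, and Comp had 11 and 4 against 4 and 28, a ratio of 0.468 with an interval of 0.235 to 0.889. Both overlapped between the groups, and with a minimum of 10 their log2 fold changes were −0.58 ± 0.51 (limma adjusted p = 0.621) and −0.64 ± 0.88 (limma adjusted p = 0.764). None of the 8 genes reached the minimum of 50, where 0.143% of 9796 exonic and 1.61% of 8582 intronic genes passed. Sox9 introns had 12 and 14 reads in Tead4 cells against 2 and 5, a ratio of 3.61 with an interval of 1.53 to 9.86, beside exonic reads that overlapped, and the authors' deposited table gives an adjusted p of 0.813 for the introns.

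The rest of the cartilage matrix in Sox9 cells was read from lists of genes, beside the 0.547% of all genes that passed. Of 8 cartilage collagens, 3 reached the minimum and 2 rose. Col11a1, of the fibril core, rose by 5.72 ± 0.33 (limma adjusted p = 0.000974) and Col2a1 by 4.76 ± 0.21 (limma adjusted p = 0.000227). Col9a1, of the fibril surface, stayed under the minimum, with 45 and 101 exonic reads in the Sox9 libraries and 0 in the other 10. Like Acan and Lect1 it had next to no reads outside Sox9 cells, whereas Col2a1 had 330 and 582 reads in vector cells already.

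Close relatives of the aggrecan and link protein genes did not pass. Of 10 relatives, among them the hyaluronan synthases and the hyaluronan receptor Cd44, 4 were measured and 0 passed, at a median log2 fold change of 0.27 beside −0.02 over all genes. The large proteoglycan Vcan had a change of 0.94 ± 0.21 (limma adjusted p = 0.147). Of 14 relatives of the matrilins, Comp, C1qtnf3 and Chad, 9 were measured, 1 rose and the median was 0.50. This was Prelp, a leucine-rich protein of the matrix, at 5.12 ± 0.54 (limma adjusted p = 0.0101).

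Of 24 genes for the chondroitin and keratan sulphate chains that aggrecan carries, 18 were measured, 2 rose and none fell, at a median of 0.33. Papss2, which makes the sulphate donor, rose by 1.72 ± 0.25 (limma adjusted p = 0.0394), and the sulphate carrier Slc26a2 rose by 1.54 ± 0.22 (limma adjusted p = 0.0372). Of 15 proteases and inhibitors of the matrix, which include the aggrecanases, 11 were measured and 0 passed, at a median of 0.38. Of 18 growth plate genes, 6 were measured and 0 passed, at a median of 0.36. Of 11 transcription factors of cartilage, 7 were measured and 2 rose, at a median of 0.58: Sox6, a partner of SOX9, by 4.87 ± 0.34 (limma adjusted p = 0.00148) and Mef2c by 2.84 ± 0.31 (limma adjusted p = 0.0105).

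In Dicer KO cells the counts are read beside the 16.6% of all genes that passed, in either direction. All 3 collagens measured fell, at a median of −4.12, led by Col10a1 at −5.99 ± 0.51 and Col2a1 at −4.12 ± 0.41 (limma adjusted p = 0.00500 and 0.00590). Of 4 measured relatives of aggrecan and link protein 0 passed, at a median of −1.15. Of 8 measured relatives of the matrilins, Comp, C1qtnf3 and Chad, 1 fell, Thbs2 at −1.30 ± 0.29 (limma adjusted p = 0.0413), at a median of 0.20.

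Of 20 genes for sulphated chains measured in Dicer KO cells, 2 rose and 3 fell, at a median of 0.03, beside 16.6% of all genes that passed. Xylt1, which starts the chains, fell by 3.96 ± 0.41 on the log2 scale (limma adjusted p = 0.00651), and the sulphotransferase gene Chst1 rose by 3.27 ± 0.57 (limma adjusted p = 0.0229). Of 12 proteases and inhibitors, 2 fell, Adamts5 by 1.90 ± 0.36 (limma adjusted p = 0.0284) and Timp2 by 0.82 ± 0.16 (limma adjusted p = 0.0298), at a median of −0.62; this share too is near that of all genes. Adamts5 is an aggrecanase. Of 6 growth plate genes, 2 fell, led by the parathyroid hormone receptor Pth1r at −5.66 ± 0.39 (limma adjusted p = 0.00356), and of 6 transcription factors Sox8 and Runx2 fell. The median over all genes was 0.01. In Pbx3 and Tead4 cells none of the 7 lists had an exonic gene that passed, beside 0.0102% and 0.143% of all genes.

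Intronic reads of the same lists gave further calls. In Sox9 cells 2 of 3 collagens, 3 of 6 transcription factors and 4 of 17 genes for sulphated chains rose, and 1 of 10 proteases and inhibitors and 1 of 5 growth plate genes fell, beside 1.99% of all genes. In Dicer KO cells 2 of 2 collagens, 3 of 5 transcription factors, 2 of 6 growth plate genes and 1 of 10 proteases and inhibitors fell, and of 20 genes for sulphated chains 1 rose and 2 fell, beside 6.51% of all genes. In Tead4 cells 1 of 2 collagens rose, 2 of 4 growth plate genes and 1 of 9 proteases and inhibitors fell, and of 17 genes for sulphated chains 1 rose and 2 fell, beside 1.61% of all genes. Relatives of the 8 genes gave no intronic call in any comparison, and no list had one in Pbx3 cells.

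The genes most like Acan, Hapln1 and C1qtnf3 across the 12 libraries were looked for among 10810 genes, by Pearson's r of log2(RPM + 1). Each of the 3 was among the 5 nearest of the other 2. Chl1 was nearest to Acan (r = 0.998) and to Hapln1 (r = 0.996), and Acan was nearest to C1qtnf3 (r = 0.995). Stmn2 and Faah were also among the 5 nearest to Hapln1, Igfbp5 and Lect1 among those of C1qtnf3, and Lect1 and Gas7 among those of Acan. Chl1 had 27.7 and 38.9 RPM in the Sox9 libraries and at most 0.213 in any other. These values are descriptions: all rest on the 2 Sox9 libraries, which are high in each of these genes while the other 10 are near 0.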

How the data were processed

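Strand-specific libraries of ribosome-depleted total RNA were sequenced single-end, per the labels. The submitters' processing notes name Bowtie2, the build mm9 and DESeq 1.10.1. The 8 tables the authors deposited hold, per comparison, signal columns, which are group means of reads divided by size factors, for exonic and intronic reads separately. The p-value columns are the authors' adjusted values, per the file headers. The sources used here do not give the gene models, the strand use or the treatment of shared reads.

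Each mean held 2 libraries, and whole reads of both were recovered for 100% of genes (tolerance 1e-09). On simulated data the step returned 5000 of 5000 genes, and vector reads differed for 0 genes between the tables. The tables were normalised separately, so levels across them are descriptions. Tests were run in limma 3.58.1 (R 4.3.3) on log2(normalised count + 1) with a trend of the spread on the mean, 2 libraries against 2, Benjamini-Hochberg adjusted over genes with a mean of at least 50, at a threshold of 0.05. A fold on this scale understates changes of low genes. The share of all genes whose groups did not overlap was not counted, so a lack of overlap is a description. Ratios of summed reads have exact 95% intervals from scipy 1.17.1, and a group at 0 reads takes a floor of 3 reads. Intervals cover counting error only. Floors cover it only for the group at 0 reads, since the reads of the other group are taken as they are.

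All 8 genes are named. Of each list, up to 2 genes that rose most and 2 that fell most are named in the Dicer KO and Sox9 comparisons, and the genes nearest in pattern are the 5 with the highest r. The members and lists were chosen with earlier results of these data known. Alternatives were another pseudocount, minimum, scaling or spread, a term for library order, and each library left out. No column was left without a group (0).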

Additional observations from a re-analysis of the deposited data

How the results depend on the processing

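The number of cartilage protein genes that passed limma in Sox9 against vector cells was 4 in exonic reads and 3 to 4 over 11 alternatives, including each library left out (3 to 4). It is 3 with a minimum mean of 200, where Lect1 is not tested, and without the second Sox9 library, where Lect1 has an adjusted p of 0.0816. With a minimum mean of 10, 1 of the 8 genes passed in exonic reads of Dicer KO cells (0 otherwise), and 4 passed in intronic reads of Sox9 cells (1 otherwise), because more genes were tested. At that minimum 2096 of 11901 genes passed in exonic reads of Dicer KO cells and 228 of 11090 in intronic reads of Sox9 cells. In the other comparisons the counts of cartilage protein genes were 0, which says nothing of stability, since none of the 8 genes was tested there at the minimum of 50.

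Exonic log2 fold changes ranged over the alternatives from 8.49 to 9.92 for Hapln1, 6.76 to 9.22 for Acan, 7.09 to 9.33 for C1qtnf3 and 5.48 to 7.93 for Lect1, and intronic Hapln1 from 6.10 to 7.27. No direction was reversed. Leaving out a library assumes that the lone sample varies like the other group.

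Counts over all genes depended on the setting far more. In exonic reads they ranged from 525 to 5052 for Dicer KO, 1 to 596 for Pbx3, 23 to 1790 for Sox9 and 5 to 2367 for Tead4. In intronic reads they ranged from 166 to 3112 for Dicer KO, 0 to 623 for Pbx3, 113 to 1558 for Sox9 and 49 to 1389 for Tead4. The cause was not tested. The term for library order gave 1790 exonic calls for Sox9, and leaving out the second vector library gave 1292. The labels carry no replicate numbers, so this term, taken from the data, is the one blocked fit that was run. With it 4 cartilage protein genes passed in exonic reads of Sox9 cells. The libraries were numbered to agree across groups in these same reads, so this fit is not an independent check. Reads of 0 to 14 per library limit the values of Acan, Hapln1, Lect1 and C1qtnf3 outside Sox9 cells.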
